A study of Danio rerio with 12 samples.

Results

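The genes of the RNA polymerase II elongation machinery were examined across 4 zebrafish genotypes. Of 10 genes chosen by name (supt5h, supt4h1, cdk9, ccnt1, supt6h, paf1, ctr9, cdc73, leo1 and rtf1), 9 were named by the platform annotation of the array, out of 8793 genes named in all. They lay on 12 of the 15502 probe sets tested, a probe set being a group of short oligonucleotides that together measure 1 transcript. No probe set carried supt4h1 or its Entrez identifier, so that gene was not analysed here. The genes paf1, cdc73 and leo1 had 2 probe sets each and the other 6 genes had 1.

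Total RNA came from whole embryos at 80 hours post fertilization, with 3 arrays for each genotype. Wild-type embryos were of the Tu strain. BRAF embryos were homozygous for a stable transgene in which the mitf promoter drives BRAFV600E, an activated form of the kinase. Embryos called p53 carried the p53-M214K loss-of-function allele in both copies, and BRAF;p53 embryos carried both the transgene and the mutant allele. All embryos came from incrosses of fish of the stated genotype. Differences of line, strain background or clutch thus cannot be told apart from those of genotype. The mitf promoter works in pigment cells and their precursors, a small share of the cells of an embryo. In RNA from whole embryos, fewer cells of a type and less RNA per cell cannot be told apart. How many embryos or clutches went into a sample is not stated in the labels, and p53 replicates 1 and 2 are named 1a and 1b. All p-values below thus rest on the scatter among these samples, part of which may be technical.

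RNA polymerase II often pauses shortly after it has begun a transcript. DSIF, the complex of the supt5h and supt4h1 products, holds the paused polymerase together with the negative elongation factor NELF. The kinase P-TEFb, made of the cdk9 product and a cyclin such as that of ccnt1, phosphorylates DSIF, NELF and the polymerase, which releases the pause. The histone chaperone encoded by supt6h and the PAF1 complex then travel with the polymerase through the gene. In zebrafish, mutations in supt5h and supt6h are known from the lines foggy and pandora, and elongation factors are known to matter for neural crest derivatives such as pigment cells.

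Values were on a log2 scale, and all 12 elongation factor probe sets were centred on their own median over the 12 arrays, as were 89.2% of the probe sets in the table, the other 1680 having a median below 0. For the elongation factors a value of 0 thus marks that median and not absence, and neither the brightness of a probe set nor its signal over background can be read from it, so levels were compared only within a probe set. Differences were tested with limma, a linear model fitted to every probe set on all 12 arrays, and p-values were adjusted by the Benjamini-Hochberg method over all 15502 probe sets at a threshold of 0.05. BRAF replicate 1 and p53 replicate 3 stood apart from their genotypes, with correlations across probe sets of 0.41 to 0.56 and of 0.47 to 0.48 with their fellow replicates, where wild-type and BRAF;p53 arrays had 0.67 to 0.84. The p53 samples 1a and 1b correlated at 0.75. Fits without p53 replicate 3 rest, for p53, on samples 1a and 1b alone, and whether these are independent is not stated. Arrays have no sequencing depth, and their number limits the precision.

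Of the 9 genes, 2 passed the threshold in some comparison. The kinase gene cdk9 was lower in BRAF and in p53 embryos than in wild type. Its difference between embryos with and without the transgene was not the same with intact as with mutant p53. The DSIF gene supt5h was higher in BRAF embryos than in p53 and in BRAF;p53 embryos. No probe set of ccnt1, supt6h or the PAF1 complex passed.

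With 12 probe sets 1 is the smallest count above 0, so counts of 0 or 1 cannot be told from the shares over all probe sets. Of the 12 probe sets 1 passed in BRAF against wild type (6.41% of all probe sets passed), in p53 against wild type (1.83%), in BRAF;p53 against BRAF (4.5%), in BRAF against p53 (7.44%) and in the interaction of transgene and p53 state (3.21%). In limma none passed in BRAF;p53 against wild type (1.95% of all) or against p53 (2.94%), where 1 of 12 in each had an unadjusted p under 0.05. Arrays of the genotypes compared did not overlap for 1 of 12 between BRAF;p53 and wild type (25.3% of all probe sets), 2 between BRAF and wild type (28.4%), 2 between p53 and wild type (19.1%), 1 between BRAF;p53 and p53 (21.9%), 3 between BRAF;p53 and BRAF (29%) and 2 between BRAF and p53 (23.4%).

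The typical size of the differences was small. Regardless of sign, its median over the 12 probe sets was 0.11 in BRAF against wild type, where all probe sets had 0.16, and 0.07 in p53 against wild type, where all had 0.13. In BRAF;p53 against wild type 11 of the 12 differences were negative, with a median of -0.10 against -0.01 over all probe sets and a range of -0.24 to 0.00. Over the 12 arrays the median SD was 0.192 for the 12 probe sets and 0.202 over all 15502, and 3 of the 12 lay above that median. They were those of cdk9, with an SD of 0.26, and 1 probe set each of leo1 and cdc73, with 0.239 and 0.229. The least variable was ctr9, with an SD of 0.0805 and a span of 0.28 from its lowest to its highest array.

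**Figure D1:**
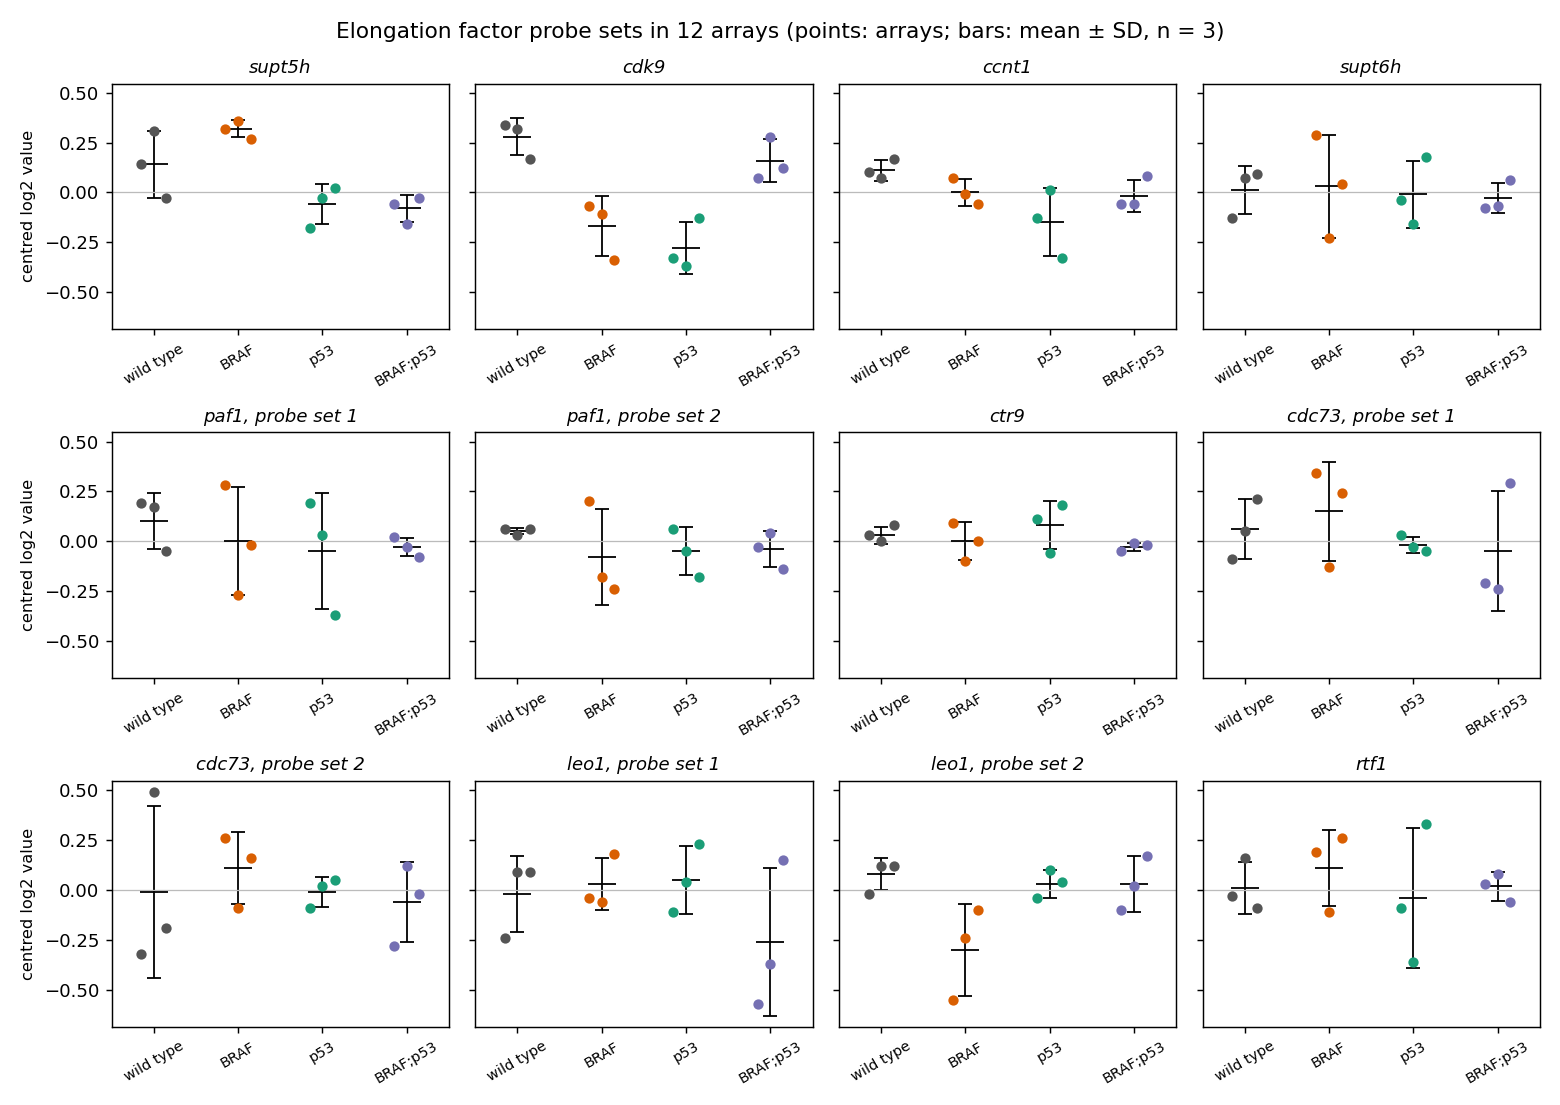
Centred log2 values (vertical axis) of the 12 probe sets of elongation factor genes in wild-type, BRAF, p53 and BRAF;p53 embryos (horizontal axis). Each point is 1 array, and bars give the mean ± SD of 3 arrays. The cdk9 panel shows the BRAF and p53 arrays at -0.37 to -0.07 and the wild-type and BRAF;p53 arrays at 0.07 to 0.34, and the supt5h panel shows the BRAF arrays at 0.27 to 0.36.

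The level of cdk9 was lower in both BRAF and p53 embryos than in wild type. Its centred log2 values were 0.34, 0.32 and 0.17 in wild type and -0.07, -0.11 and -0.34 in BRAF embryos. They were -0.33, -0.37 and -0.13 in p53 mutants and 0.07, 0.28 and 0.12 in BRAF;p53 embryos. All 6 arrays of the single mutants lay below 0 and all 6 arrays of wild type and BRAF;p53 lay above it. Against wild type, cdk9 was lower in BRAF embryos, with a log2 difference of -0.45 ± 0.11 (SE, n = 3 per genotype, 95% interval -0.69 to -0.22, limma adjusted p = 0.0296), which is a 1.37-fold lower level. In p53 mutants the difference was -0.55 ± 0.11 (95% interval -0.79 to -0.32, limma adjusted p = 0.0262), or 1.47-fold lower.

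Both of these calls held without the 2 arrays that stood apart, at -0.50 and -0.63 (limma adjusted p = 0.0146 and 0.0122). In that fit the p53 group was samples 1a and 1b alone, so its p-value may rest on technical scatter. Both calls share the 3 wild-type arrays. Each held in 8 of the 12 fits that left out 1 array: the call in BRAF was lost without wild_type replicates 1 or 2 (up to 0.104, without replicate 2) or BRAF replicates 2 or 3, and that in p53 without wild_type replicates 1 or 2 (up to 0.0991, without replicate 1) or p53 replicates 1 or 2. With p53 samples 1a and 1b averaged, the p53 difference was -0.52 (limma adjusted p = 0.0967).

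BRAF;p53 embryos differed from wild type in cdk9 by -0.12 ± 0.11, which did not pass (95% interval -0.36 to 0.12, limma adjusted p = 0.768). They were above BRAF embryos by 0.33 and above p53 mutants by 0.43, and although the arrays did not overlap in either comparison, neither passed (limma adjusted p = 0.109 and 0.0582). The difference from p53 mutants passed in 3 of 12 fits without 1 array, those without BRAF replicate 1, BRAF replicate 3 or p53 replicate 3, and was 0.51 without the 2 arrays that stood apart (limma adjusted p = 0.0194). From highest to lowest the means were 0.28 in wild type, 0.16 in BRAF;p53, -0.17 in BRAF and -0.28 in p53 embryos, and no neighbours in that order differed past the threshold.

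The cdk9 difference between embryos with and without the transgene was not the same with intact as with mutant p53. The difference that went with the transgene was -0.45 where p53 was intact and 0.43 where it was mutant. The interaction, which is the latter minus the former, was 0.89 ± 0.15 (log2, SE, n = 3 per genotype, 95% interval 0.55 to 1.22, limma adjusted p = 0.00995). It passed in 12 of 12 fits without 1 array, with limma adjusted p between 0.00648 and 0.0324, and was 1.01 without the 2 arrays that stood apart (limma adjusted p = 0.00421).

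A liver gene differed from wild type in the same genotypes as cdk9, in the opposite direction. Of 3 liver genes, cp, which encodes ceruloplasmin, differed from wild type by 2.65 in BRAF and 2.10 in p53 embryos (limma adjusted p = 1.55e-05 and 0.000157) and by -0.48 in BRAF;p53 embryos (limma adjusted p = 0.28), and fabp10a and tfa did not pass. The fabp10a difference from wild type was 0.75 in BRAF and 1.08 in p53 embryos (limma adjusted p = 0.499 and 0.46), and that of tfa 0.00 and 0.18 (limma adjusted p = 0.99 and 0.408). The mean of the 3 genes per array ran from -0.99 to -0.29 in wild type and from -0.85 to -0.58 in BRAF;p53 embryos. It ran from 0.44 to 0.80 in BRAF and from 0.33 to 0.76 in p53 embryos, a mean in which cp had the largest differences. For cp, BRAF;p53 embryos also differed from BRAF by -3.13 and from p53 by -2.58 (limma adjusted p = 8.03e-06 and 4.67e-05), where cdk9 did not pass. The cp interaction was -5.23 (limma adjusted p = 8.02e-06). The 5 exocrine pancreas probe sets were likewise all above 0 in BRAF and in p53 against wild type, with 0 past the threshold. The part of liver or pancreas tissue in the cdk9 result was not tested.

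The cyclin partner of the kinase is encoded by ccnt1, for which no comparison passed. Its values were 0.10, 0.07 and 0.17 in wild type and 0.07, -0.01 and -0.06 in BRAF embryos. They were -0.13, 0.01 and -0.33 in p53 mutants and -0.06, -0.06 and 0.08 in BRAF;p53 embryos. The p53 arrays lay below all wild-type arrays, with a difference of -0.26 ± 0.10 (log2, SE, n = 3 per genotype, 95% interval -0.48 to -0.05, limma adjusted p = 0.239). The difference from wild type was -0.11 in BRAF and -0.13 in BRAF;p53 embryos (limma adjusted p = 0.537 and 0.699), and the interaction was 0.25 (limma adjusted p = 0.358). Over the 12 arrays ccnt1 and cdk9 correlated at 0.46.

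**Figure D2:**
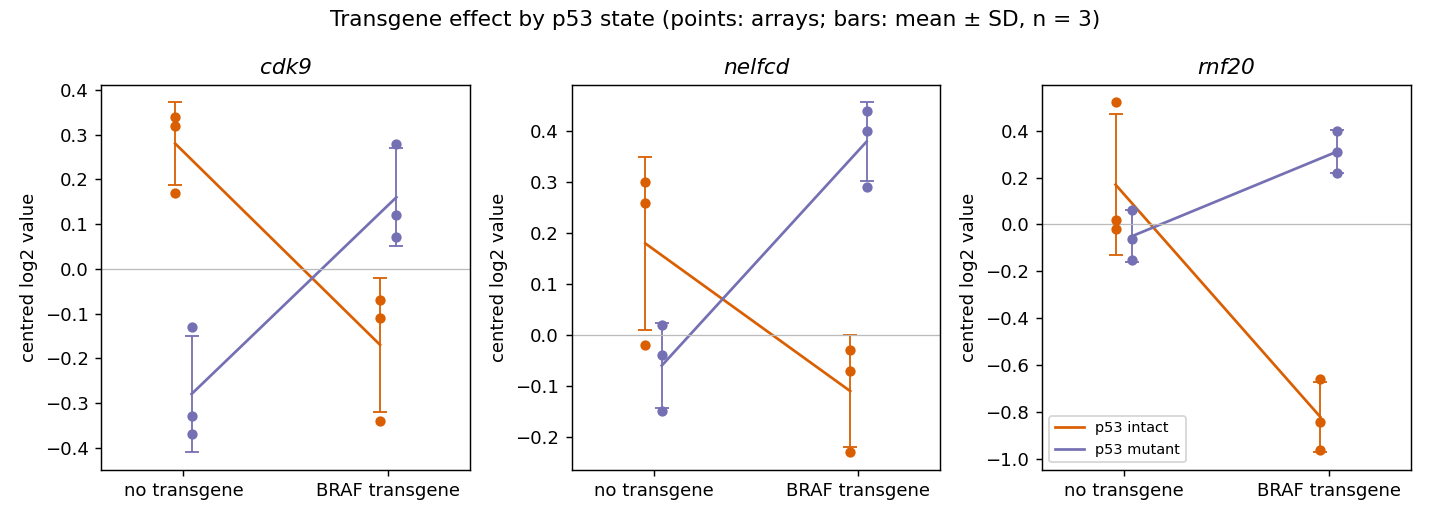
Centred log2 values (vertical axis) of cdk9, nelfcd and 1 probe set of rnf20 without and with the BRAF transgene (horizontal axis), in embryos with intact p53 (orange) and with mutant p53 (purple). Points are arrays, bars the mean ± SD of 3 arrays, and lines join the means. In each panel the orange line falls and the purple line rises, with interactions of 0.89, 0.72 and 1.35.

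The DSIF gene supt5h was highest in BRAF embryos. Its values were 0.32, 0.36 and 0.27 in BRAF embryos and 0.14, 0.31 and -0.03 in wild type. They were -0.18, -0.03 and 0.02 in p53 mutants and -0.06, -0.16 and -0.03 in BRAF;p53 embryos. The BRAF arrays lay above all p53 and BRAF;p53 arrays and overlapped with wild type through wild_type replicate 2. Relative to p53 mutants, BRAF embryos had more supt5h, by 0.38 ± 0.10 (log2, SE, n = 3 per genotype, 95% interval 0.16 to 0.60, limma adjusted p = 0.0438), or 1.30-fold. BRAF;p53 embryos had less of it than BRAF embryos, with a difference of -0.40 ± 0.10 (95% interval -0.62 to -0.18, limma adjusted p = 0.0481), or 1.32-fold.

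Both supt5h calls sat close to the threshold and were lost in most other fits, all of which kept the direction. The call against p53 mutants held in 2 of 12 fits without 1 array, those without wild_type replicates 2 or 3, and reached an adjusted p of 0.126 without p53 replicate 1. The call of BRAF;p53 against BRAF held in 3, those without wild_type replicates 2 or 3 or p53 replicate 3, and reached 0.186 without BRAF;p53 replicate 2. Without the 2 arrays that stood apart the differences were 0.42 and -0.40 (limma adjusted p = 0.0644 and 0.059), and after quantile normalization 0.30 and -0.33 (limma adjusted p = 0.144 and 0.1). With weights for the quality of each array they were 0.44 and -0.44 (limma adjusted p = 0.00754 and 0.000841). BRAF replicates 1, 2 and 3 had weights of 0.181, 5.27 and 0.769. In every fit with array weights the BRAF mean thus rests mostly on BRAF replicate 2. The difference of BRAF from p53 embryos had itself a median of 0.06 over all probe sets. BRAF replicate 1 had the highest array median, 0.0812, against -0.0365 to -0.00205 on the other arrays.

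Against wild type no supt5h difference passed. It was 0.18 in BRAF (95% interval -0.04 to 0.40), -0.20 in p53 and -0.22 in BRAF;p53 embryos (limma adjusted p = 0.336, 0.4 and 0.384). The interaction was -0.20 (95% interval -0.51 to 0.11, limma adjusted p = 0.481). The means ran from 0.32 in BRAF through 0.14 in wild type and -0.06 in p53 to -0.08 in BRAF;p53, and no neighbours in that order differed past the threshold. Of 4 skeletal muscle genes, desma, which encodes desmin, was also highest in BRAF embryos, by 0.62 over wild type and 0.61 over p53 mutants (limma adjusted p = 0.0365 and 0.0369). The other muscle genes did not pass, and in BRAF against wild type 3 of the 5 probe sets of the list were below 0, with a median of -0.03. The difference was -0.10 for ckma and -0.11 for 1 probe set of mylpfa, both with BRAF arrays below all wild-type arrays (limma adjusted p = 0.537 and 0.458). The list mean per array was -0.06 to 0.05 in wild type, 0.04 to 0.10 in BRAF, -0.11 to 0.13 in p53 and -0.02 to 0.03 in BRAF;p53 embryos, and its part in the supt5h result was not tested.

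**Figure D3:**
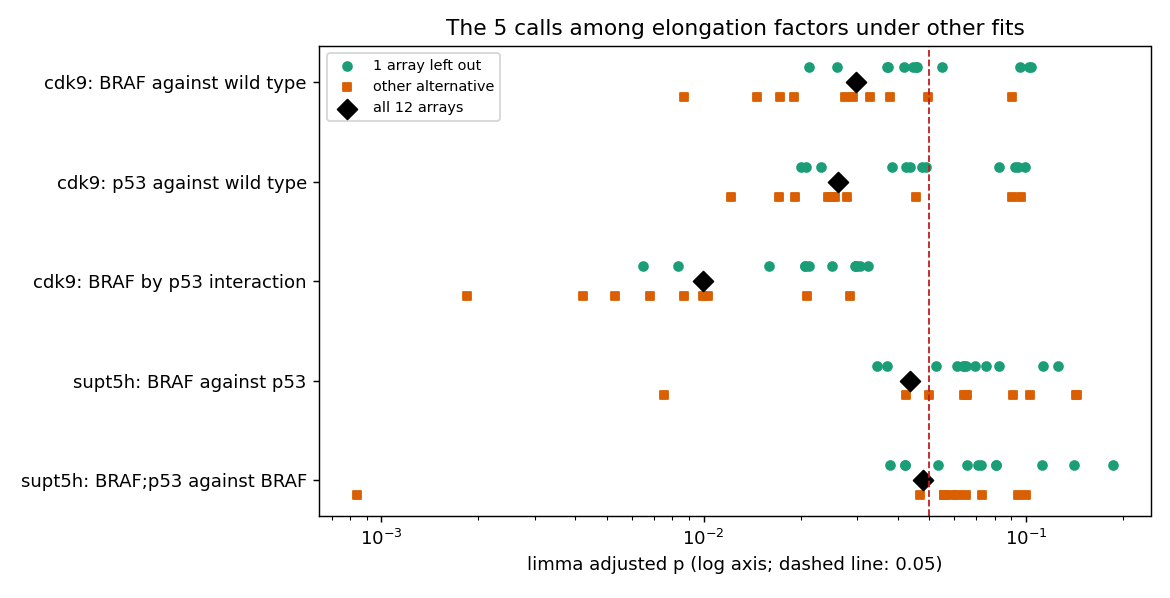
Limma adjusted p (horizontal log axis, dashed line at 0.05) of the 5 calls among elongation factor genes, with 1 row per call. Black diamonds are the fit of all 12 arrays, green points the fits that each left out 1 array, and orange squares the other alternatives. The points of the cdk9 interaction all lie left of the line, and most points of both supt5h calls lie right of it.

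For the histone chaperone gene supt6h no comparison passed. Its values were -0.13, 0.07 and 0.09 in wild type and 0.29, -0.23 and 0.04 in BRAF embryos. They were -0.04, -0.16 and 0.18 in p53 mutants and -0.08, -0.07 and 0.06 in BRAF;p53 embryos. The arrays of all 4 genotypes overlapped, and BRAF replicate 1 was the highest and BRAF replicate 2 the lowest of the 12. The 6 pairwise differences ran from -0.06 to 0.04, with limma adjusted p between 0.815 and 0.99, and their 95% intervals together spanned -0.36 to 0.34.

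None of the 8 probe sets of the PAF1 complex genes chosen here passed in limma in any of the 7 comparisons. Of all probe sets 1.83% to 7.44% passed in a comparison. Of the 8, 1 probe set of leo1 had an unadjusted p under 0.05, in 3 comparisons. The PAF1 complex is known for its part in histone H2B ubiquitination on transcribed genes. Its scaffold is the ctr9 product, and those of paf1, leo1, cdc73 and rtf1 are further subunits. The human homologue of cdc73 encodes the tumour suppressor parafibromin. The closest to the threshold was 1 probe set of leo1, at -0.55, -0.24 and -0.10 in BRAF embryos and -0.02, 0.12 and 0.12 in wild type. It read -0.04, 0.10 and 0.04 in p53 mutants and -0.10, 0.02 and 0.17 in BRAF;p53 embryos. All 3 BRAF arrays lay below those of the other genotypes, though BRAF replicate 3 and BRAF;p53 replicate 1 round to the same value.

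For that leo1 probe set the difference of BRAF from wild type was -0.37 ± 0.12 (log2, SE, n = 3 per genotype, 95% interval -0.64 to -0.11, limma adjusted p = 0.1). From p53 mutants BRAF embryos differed by -0.33 (limma adjusted p = 0.129), and BRAF;p53 embryos differed from BRAF by 0.33 (limma adjusted p = 0.149). With array weights the difference from wild type passed, at -0.31 (limma adjusted p = 0.0223), as it did with a replicate block (0.0486). The ID of this probe set has the suffix that Affymetrix gives where probes may match several transcripts.

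The other leo1 probe set gave another pattern. It had -0.04, -0.06 and 0.18 in BRAF embryos and -0.24, 0.09 and 0.09 in wild type, a difference of 0.05 (95% interval -0.34 to 0.44, limma adjusted p = 0.894). Its lowest values, -0.57 and -0.37, were in BRAF;p53 replicates 1 and 2, while BRAF;p53 replicate 3 had 0.15, and the p53 arrays had -0.11, 0.04 and 0.23. The BRAF;p53 difference from wild type was -0.24 (limma adjusted p = 0.672). The correlation between the 2 leo1 probe sets over the 12 arrays was 0.21.

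For the remaining PAF1 complex genes chosen here the genotypes overlapped in all comparisons but 1. The exception was ctr9, whose BRAF;p53 arrays, at -0.05, -0.01 and -0.02, lay below the wild-type arrays at 0.03, 0.00 and 0.08. That difference was -0.06 (95% interval -0.25 to 0.13, limma adjusted p = 0.897). The difference of BRAF from wild type was 0.10 for rtf1, -0.04 for ctr9, -0.10 and -0.12 for the 2 probe sets of paf1, and 0.09 and 0.12 for those of cdc73 (limma adjusted p between 0.574 and 0.83). With array weights the latter of the paf1 values became -0.23 and passed (limma adjusted p = 0.045).

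Single arrays set the extremes of several of these genes. For 1 cdc73 probe set wild_type replicate 2 had 0.49, where the other wild-type arrays had -0.32 and -0.19. The p53 arrays of rtf1 were -0.09, -0.36 and 0.33, and so spanned all other arrays of that gene. The BRAF arrays of the first paf1 probe set were 0.28, -0.27 and -0.02, with the highest value on the array that stood apart, and its p53 arrays were 0.19, 0.03 and -0.37, with the lowest value on the other array that stood apart.

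The median correlation between the chosen subunits of the PAF1 complex over the 12 arrays was low. Among 25 pairs of probe sets from different PAF1 complex genes the correlation ran from -0.39 to 0.66 with a median of 0.078. Over all 63 pairs from different elongation factor genes the median was 0.13 and the range -0.51 to 0.72. The highest was that of ctr9 with supt6h, followed by cdc73 with supt6h at 0.67 and rtf1 with supt6h at 0.66. The 2 paf1 probe sets correlated at 0.76, the 2 cdc73 probe sets at 0.34 and the 2 leo1 probe sets at 0.21. As probe sets of 1 gene could correlate this weakly, whether the subunits varied together cannot be told. These values are descriptions over 12 arrays that share their RNA samples and their scaling.

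**Figure D4:**
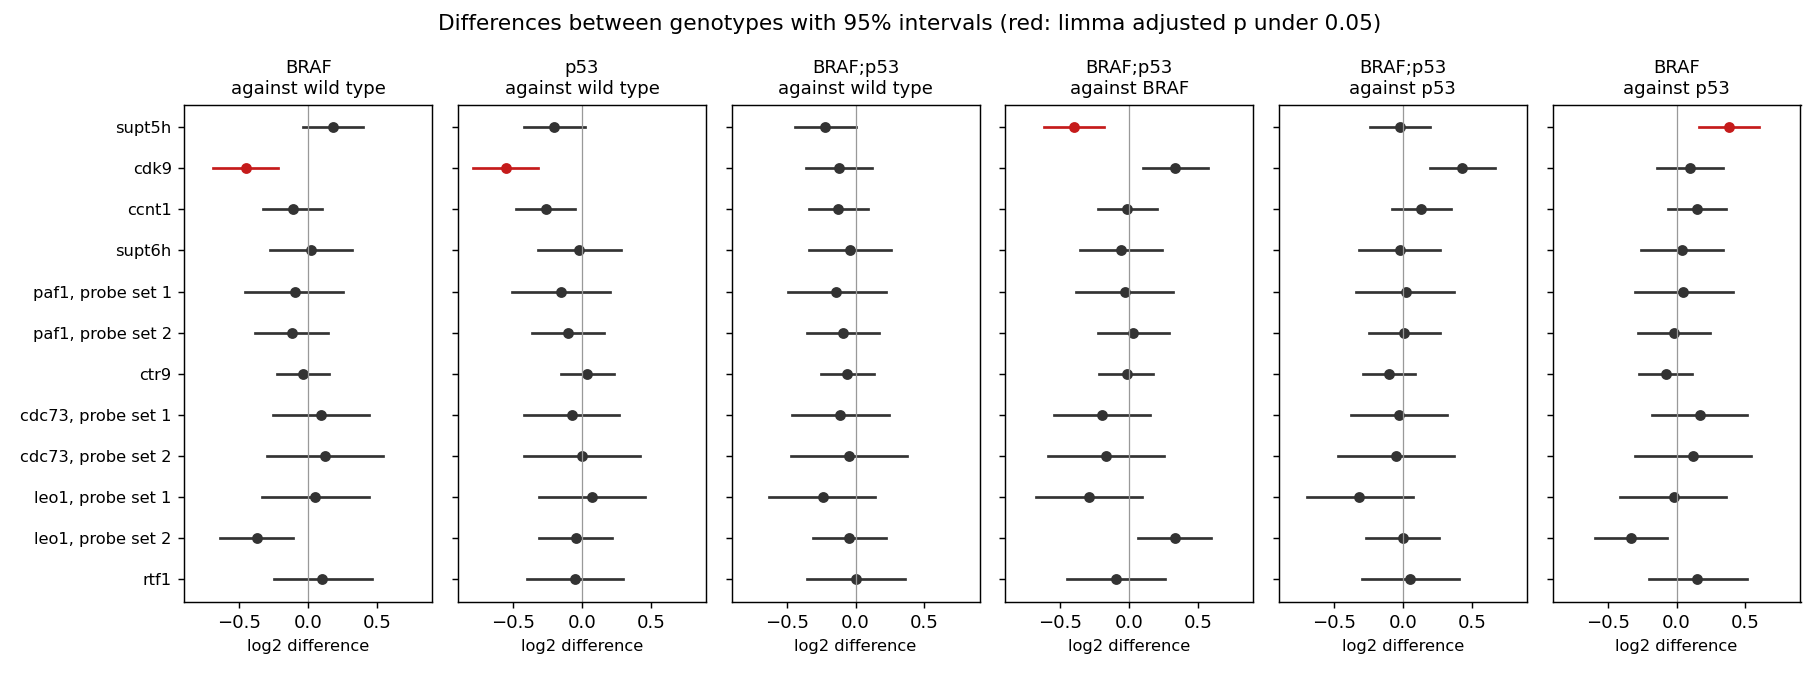
Log2 differences between genotypes (horizontal axes) for the 12 probe sets (rows), with 1 panel for each of the 6 pairwise comparisons. Points are the limma estimates, lines their 95% intervals, and red marks an adjusted p under 0.05. The 4 red points are cdk9 at -0.45 and -0.55 against wild type and supt5h at -0.40 and 0.38.

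Other genes of the elongation machinery were represented by 35 genes on 45 probe sets. They comprised NELF, P-TEFb partners and other elongation kinases, the super elongation complex, and TFIIS and elongin. Chromatin factors of transcribed genes and subunits of the polymerase itself were also among them. Between BRAF;p53 and wild type (1.95% of all probe sets passed) and between p53 and wild type (1.83%) 0 of the 45 passed in limma. In these comparisons 0 and 3 of the 45 had an unadjusted p under 0.05, for which no share over all probe sets is given. In BRAF against wild type 1 of 45 was lower, where 6.41% of all probe sets passed in either direction. In BRAF;p53 against p53 1 was higher (2.94% of all passed), in BRAF;p53 against BRAF 2 were higher (4.5%), and in BRAF against p53 1 was higher and 1 lower (7.44%). In the interaction 2 were above 0 (3.21%). These calls fell on 3 genes, rnf20, nelfcd and eaf2.

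The gene rnf20 encodes a ubiquitin ligase for histone H2B, and 1 of its 2 probe sets had the largest differences among these calls. That probe set read -0.96, -0.84 and -0.66 in BRAF embryos and -0.02, 0.52 and 0.02 in wild type. It read 0.06, -0.06 and -0.15 in p53 mutants and 0.31, 0.40 and 0.22 in BRAF;p53 embryos. All BRAF arrays lay below all other arrays. BRAF embryos had less than wild type, at -0.99 ± 0.14, and BRAF;p53 embryos had more than BRAF, at 1.13 ± 0.14 (log2 ± SE over 3 arrays per genotype, limma adjusted p = 0.00192 and 0.00145). Between BRAF and p53 it differed by -0.77 (limma adjusted p = 0.008) and the interaction was 1.35 (limma adjusted p = 0.00426), and all 4 calls held in 12 of 12 fits without 1 array and under all other alternatives run for them. The other rnf20 probe set gave 0.00 for BRAF against wild type (95% interval -0.26 to 0.26, limma adjusted p = 0.992), so the probe sets of this gene disagreed.

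The NELF subunit gene nelfcd was highest in BRAF;p53 embryos, at 0.29, 0.44 and 0.40. It read -0.07, -0.03 and -0.23 in BRAF, -0.04, -0.15 and 0.02 in p53 and 0.30, -0.02 and 0.26 in wild-type embryos. The BRAF;p53 arrays lay above all BRAF and p53 arrays and overlapped with wild type. The difference of BRAF;p53 from BRAF was 0.48 ± 0.10 (log2 ± SE over 3 arrays per genotype, limma adjusted p = 0.0246), and that from p53 was 0.43 (limma adjusted p = 0.0515). The interaction was 0.72 (limma adjusted p = 0.0243).

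Leaving out 1 array, the nelfcd interaction held in 5 of 12 fits and was lost without BRAF replicate 3, BRAF;p53 replicates 2 or 3, p53 replicates 1 or 2, or wild_type replicates 1 or 3. The highest adjusted p was 0.0717, without BRAF;p53 replicate 2. The call against BRAF held in 8 and was lost without BRAF replicate 3 or any 1 of the BRAF;p53 arrays. The interaction was also lost with trend and robust settings (limma adjusted p = 0.0736) and when samples 1a and 1b were averaged (0.0577), and the call against BRAF with trend and robust settings (0.0674). The other NELF genes nelfa, nelfb and nelfe did not pass in any comparison. Beside this, 5 neural crest and pigment genes had a mean per array of 0.27 to 0.44 in BRAF;p53 embryos, -0.23 to -0.07 in wild type, -0.17 to 0.23 in BRAF and -0.40 to 0.00 in p53. Among them only crestin, a neural crest marker, passed in BRAF;p53 against wild type, at 1.22 (limma adjusted p = 0.00279). In BRAF;p53 against BRAF 1 of the 5 genes, tyr, was higher past the threshold, at 0.82 (limma adjusted p = 0.0311). In that comparison crestin did not pass, at 0.63 (limma adjusted p = 0.0562). In BRAF;p53 against p53 2 of the 5 were higher past the threshold, crestin among them at 0.70 (limma adjusted p = 0.0479). The part of these cells in the nelfcd result was not tested.

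The super elongation complex gene eaf2, whose product binds the ELL elongation factors, was lowest in p53 mutants, at -0.78, -0.41 and -0.37. It read 0.26, 0.10 and -0.14 in BRAF, 0.08, 0.00 and 0.13 in BRAF;p53 and 0.00, 0.14 and -0.15 in wild-type embryos. All p53 arrays lay below the arrays of the other 3 genotypes. Both BRAF and BRAF;p53 embryos had 0.59 ± 0.14 more than p53 mutants (log2 ± SE over 3 arrays per genotype, limma adjusted p = 0.0236 and 0.0452). For p53 against wild type the difference was -0.52 (limma adjusted p = 0.096). The call for BRAF held in 9 of 12 fits and was lost without BRAF replicates 1 or 2 or p53 replicate 1, at up to 0.0689. The call for BRAF;p53 held in 3, those without BRAF replicates 1 or 3 or p53 replicate 3, and reached 0.161 without BRAF;p53 replicate 1. Of the other alternatives, 2 of 10 lost the call for BRAF, quantile normalization (limma adjusted p = 0.0504) and only the genotypes compared (0.141). For BRAF;p53 4 of 10 lost it, trend and robust settings (0.0774), a replicate block (0.0716), samples 1a and 1b averaged (0.0962) and only the genotypes compared (0.0715).

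No probe set of the polymerase subunits (10 probe sets of 8 genes) passed in limma in any comparison. None passed either among P-TEFb partners and other elongation kinases (8 of 6 genes) or TFIIS and elongin (6 of 5 genes). Over all probe sets 1.83% to 7.44% passed in a comparison, so lists this short could well hold no call. In these lists at most 3, 5 and 1 probe sets, in that order, had an unadjusted p under 0.05 in a comparison. No share over all probe sets is given for the unadjusted p. Among P-TEFb partners and other elongation kinases 7 of 8 probe sets were above 0 in BRAF against p53. The median of this list was 0.38 where all probe sets had 0.06. The cyclin-dependent kinase gene cdk13 accounted for 3 of the 8, at 0.43 to 0.50, with a lowest limma adjusted p of 0.0568. The gene larp7, which encodes a protein of the 7SK particle that restrains P-TEFb, had -0.89 (limma adjusted p = 0.337). On the arrays that stood apart, BRAF replicate 1 read 0.50 to 0.83 for cdk13, where the other BRAF arrays read -0.07 to 0.11. For cdk13 p53 replicate 3 read -0.73, -0.09 and -0.67, where the other p53 arrays read -0.47 to 0.08. For larp7 these 2 arrays read -2.21 and 0.80. Their part in the list median was not tested.

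The remaining marker lists gave the following means per array, in the order wild type, BRAF, p53 and BRAF;p53. Proliferation genes (10) spanned -0.15 to 0.06, -0.14 to 0.02, -0.21 to -0.06 and -0.14 to 0.02. Exocrine pancreas genes (4) spanned -2.38 to 0.78, -0.25 to 1.80, -1.53 to 2.03 and -1.91 to -1.19. Neuronal genes (4) spanned -0.41 to 0.04, -0.86 to 0.14, -0.21 to 0.37 and 0.02 to 0.31. Of these lists the 1 probe set past the threshold was that of the mitotic cyclin gene ccnb1, lower in BRAF than in wild type with a difference of -0.65 (limma adjusted p = 0.0484). Because most values are centred, they do not show how strongly a tissue was represented, and 2 of the proliferation probe sets, of mki67 and top2a, lay below 0 on all 12 arrays.

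Of all genes with 1 symbol, those whose values followed supt5h most closely over the 12 arrays were ncalda, mfsd4b and wdr48a, with Pearson correlations of 0.905, 0.898 and 0.888 (Spearman 0.853, 0.86 and 0.853). The ncalda values were 1.06 to 1.39 in BRAF embryos and -0.88 to 0.65 elsewhere. For supt6h they were kdm5bb, ccnd1 and nr2e1, at 0.899, 0.847 and 0.845 (Spearman 0.867, 0.86 and 0.839). These were the highest of 10783 probe sets compared with each gene and are given as a description.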

How the data were processed

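The authors summarised 12 Affymetrix arrays with GCRMA, per the submitters' processing notes (no version). In the deposited table, whose values were log2, 89.2% of 15617 probe sets had a median over the arrays of 1 within 0.0001 once the log was undone, so these, all 12 elongation factor probe sets among them, had been centred by a step not given in the sources used here. The other 1680 had a median below 1. No filter on dim probe sets was possible.

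Groups came from the sample titles. After leaving out 115 controls, limma 3.58.1 under R 4.3.3 fitted 1 mean per genotype to 15502 probe sets without a block (lmFit, eBayes, two-sided), for 6 pairwise contrasts and the interaction. The platform annotation gave 10795 probe sets 1 symbol, 135 several and 4572 none. All 12 elongation factor probe sets matched RefSeq by Entrez identifier.

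The text names every elongation factor probe set, other elongation genes that passed, and 3 genes each by likeness to supt5h and supt6h. A few more (cdk13, larp7, single markers) were chosen after their values were seen. Members and lists were chosen with earlier results of these data known. The fit was run on simulated data as a check of the code only. How often it finds differences as small as those reported here is not given. The alternatives are given with their effect in the closing section for the elongation factors, and beside the results for nelfcd, eaf2 and rnf20.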

Additional observations from a re-analysis of the deposited data

Results flagged for a closer look

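In 3 elongation genes the difference that went with the BRAF transgene was not the same with mutant as with intact p53, by the interaction test in limma. Line and clutch cannot be told apart from genotype in this test. The interaction was 0.89 on the log2 scale for cdk9 (limma adjusted p = 0.00995). It was 1.35 for rnf20 (limma adjusted p = 0.00426), on 1 of 2 probe sets, the other having -0.08. For nelfcd it was 0.72 (limma adjusted p = 0.0243), a call that was lost in 7 of 12 fits without 1 array, with trend and robust settings (0.0736) and with samples 1a and 1b averaged (0.0577). In this test 3.21% of all probe sets passed. In each of the 3 the BRAF arrays lay below all wild-type arrays and the BRAF;p53 arrays above all p53 arrays. As the 3 were picked by the interaction on these same arrays, this is only a description. Of all probe sets, 28.4% did not overlap between BRAF and wild type and 21.9% between BRAF;p53 and p53. For nelfcd the nearest BRAF and wild-type arrays read -0.03 and -0.02. The difference of BRAF;p53 from p53 did not pass for any of the 3.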

How the results depend on the processing

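Of 1815 differences of the 12 elongation factor probe sets recomputed under other settings, 0 reversed a call, 46 lost a call and 12 gained one. Another 19 had not passed and still did not, but moved by more than the spread. The remaining 1738 also kept their side of the threshold. The number of elongation factor probe sets past the threshold changed as follows. In BRAF against wild type it was 1, and 3 with array weights, 2 with a replicate block, 0 with only the genotypes compared and 0 to 1 without 1 array. In p53 against wild type it was 1, and 0 with samples 1a and 1b averaged or only the genotypes compared, and 0 to 1 without 1 array. In BRAF;p53 against p53 it was 0, and 1 with quantile normalization, with array weights or without the 2 arrays that stood apart, and 0 to 1 without 1 array. In BRAF;p53 against BRAF and in BRAF against p53 it was 1, and 0 with quantile normalization, centred array medians, trend and robust settings, a replicate block, samples 1a and 1b averaged, only the genotypes compared, no probe sets of median below 1, or without the 2 arrays that stood apart, and 0 to 1 without 1 array. Array weights gave 4 and 1 in these comparisons. With 1 probe set per gene no count changed, and those of BRAF;p53 against wild type and of the interaction did not change in any setting. The causes were not tested. Whether same-numbered samples were paired was not settled. By title number, of 18 such pairs 7 had a correlation of deviations over 0.1 (-0.323 to 0.363), and 6 of 12 arrays correlated best with their own number. The p53 source labels are 1a, 1b and 2, which would match other arrays. Over all probe sets the calls numbered 302 in BRAF;p53 against wild type (162 to 1494 in other settings), 993 in BRAF against wild type (595 to 3093), 284 in p53 against wild type (105 to 688), 456 in BRAF;p53 against p53 (179 to 1634), 698 in BRAF;p53 against BRAF (302 to 4997), 1153 in BRAF against p53 (342 to 2446) and 497 in the interaction (284 to 2502). Array weights gave the highest of these except in p53 against wild type, where leaving out the 2 arrays that stood apart did. Signal over background could not be judged from centred values.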
